A study of Mus musculus with 12 samples.

Results

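Of the 14236 circRNA probes on the array, 269 (1.89%) had a spot that the scanner software marked as well above background on all 3 SHAM arrays and on none of the 3 arrays of mouse blood taken after 24 h of middle cerebral artery occlusion (MCAO). These 269 circRNAs were chosen by those calls alone, so their state in SHAM and at 24 h is a description and was not tested. They made up 2.32% of the 11615 circRNAs called on every SHAM array. In the opposite direction, 152 circRNAs (1.07%) were called on no SHAM array and on all 3 arrays of 24 h. A further 9676 (68%) were called on all 6 of these arrays, and 590 (4.14%) on none of them. Whether the 269 circRNAs were lower at 24 h depended on the scale. In 253 of them every 24 h array was above every SHAM array in raw intensity (63.4% of all probes). On background-subtracted signal every 24 h array was lower in 108 (13.6% of all probes) and higher in 11 (28.2% of all probes). After normalization it was lower in 211 (22.9% of all probes) and higher in 0 (20.8% of all probes). They are therefore named here by the rule, as circRNAs not well above background at 24 h.

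Circular RNAs are made when the end of an exon is spliced back to a start upstream of it, which closes the RNA into a ring without free ends. A ring gives exonucleases no end to start from, and circRNAs are for this reason stable in blood, where red cells, platelets and white cells all carry them. The enzyme RNase R digests linear RNA and leaves most rings intact, and it was used here before labelling. What remains was copied with random primers, marked with the dye Cy3 and hybridised to probes designed across the back-splice junctions. The intensity of a spot is a measure of its circRNA on a scale particular to that probe, so that levels of different probes were ranked only as a description of brightness.

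Whole blood was drawn from male Balb/c mice, aged 8 weeks by the labels (the study's methods give an older age), and one Cy3 array was hybridised per sample. The 4 groups held 3 arrays each, and besides SHAM they were mice whose artery was occluded for 5 min, for 3 h or for 24 h before the blood was drawn. MCAO blocks the main artery of one side of the brain with a filament and is a model of ischemic stroke. SHAM mice had the same operation with an occlusion of 0 time, so that anaesthesia and surgery were shared by every group, while the labels list no SHAM group at the later times. The blood was not separated into cells, and fewer cells of a type cannot be told apart from less circRNA per cell. The labels do not say that each array is a separate mouse, and the p-values measure the spread between arrays.

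The arrays came from 2 slides, which were read from the scan recorded in each file. Slide 1 held SHAM, 5 min and replicates 1 and 2 of 3 h (8 arrays), and slide 2 held replicate 3 of 3 h and all of 24 h (4 arrays). The 24 h group therefore shared no slide with SHAM, and time and slide cannot be told apart in that contrast. Replicate 3 of 3 h is the one array by which the 2 slides can be compared at the same time point, and there slide and sample cannot be told apart. The negative control spots, which match no mouse RNA, had a median intensity of 25 to 27 on the arrays of slide 1 and 83.5 to 101 on those of slide 2. The local background beside the spots differed little, at 20 to 23 and 23 to 24.

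Each of the 269 circRNAs is known here only by its probe number, and none could be given a host gene. Host gene lists of blood cells and neurons could therefore not be counted.

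The 269 circRNAs were dim already in SHAM. Their place among all circRNA probes, ranked on mean normalized intensity in SHAM, had a median at the 25.6th percentile, with quartiles at 21.1 and 33.4 and extremes at 12.4 and 66.2. The median of all probes lay above 260 of the 269.

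The calls on the 5 min and 3 h arrays, which the choice did not use, differed between replicates of one group. At 5 min, 76, 136 and 145 of the 269 circRNAs were called well above background on replicates 1, 2 and 3 (28.3%, 50.6% and 53.9%). At 3 h, 228 and 214 were called on replicates 1 and 2 (84.8% and 79.6%) and 100 on replicate 3 (37.2%). The low 3 h array was the one on slide 2.

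The same arrays ranked differently when all circRNA probes were counted. Of all 14236 probes, 84.6% to 85.5% were called on the SHAM arrays and 70.9%, 74.7% and 77.1% on the 5 min arrays. The shares at 3 h were 84.1%, 84.5% and 88%, so that replicate 3 had the most calls of the 3 h arrays over all probes and the fewest among the 269. At 24 h the shares were 90.2%, 78% and 73%.

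**Figure D1:**
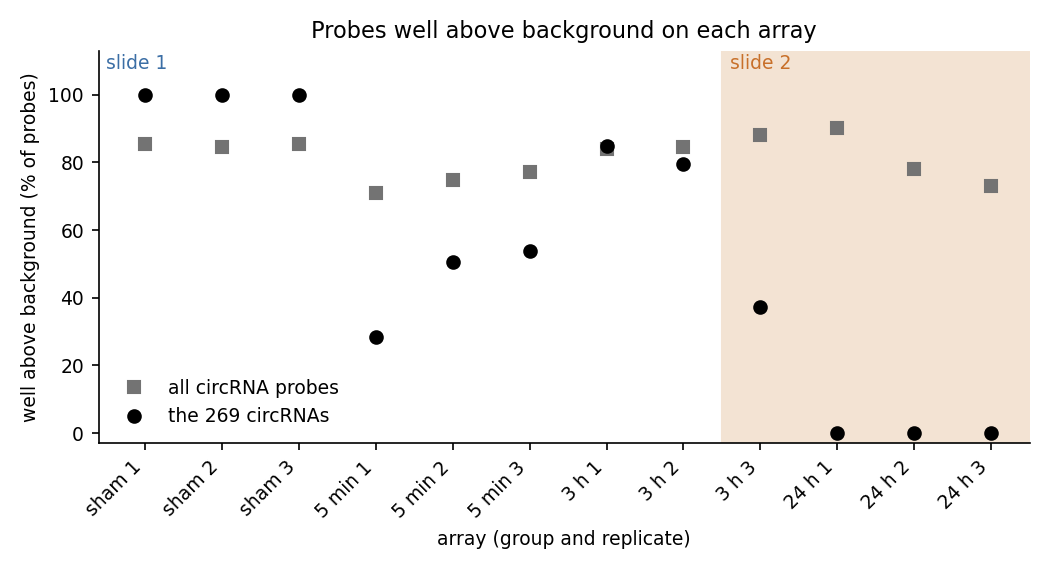
Share of probes that the scanner software called well above background (y axis, percent) on each of the 12 arrays (x axis), for the 269 circRNAs (black circles) and all 14236 circRNA probes (grey squares), with the arrays of slide 2 shaded. The 269 circRNAs stand at 100% in SHAM and 0% at 24 h by choice, at 28.3% to 53.9% at 5 min, at 84.8% and 79.6% on the 3 h arrays of slide 1 and at 37.2% on the 3 h array of slide 2.

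Followed one by one, 206 of the 269 circRNAs (76.6%) were called on both 3 h arrays of slide 1, against 97.8% of the circRNAs called on all SHAM arrays. On replicate 3 as well, 84 (31.2%) were called, against 95.1%. The pattern of both arrays on slide 1 without replicate 3 was held by 122 (45.4%, against 2.69%), and the opposite pattern, replicate 3 alone, by 9 (3.35%, against 0.689%). No 3 h array called 24 of them. The circRNAs called on all SHAM arrays, here and below, include the 269, and 122 of their 313 with the first pattern are among these. They were not matched to the dim level of the 269 in SHAM. The rule also requires no call on the 24 h arrays, which lie on slide 2 with replicate 3. So no trait of the 269 is read from these shares.

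At 5 min, 59 of the 269 circRNAs were called on all 3 arrays, 72 on 2 arrays, 36 on 1 array and 102 on none. Among the circRNAs called on all SHAM arrays these shares were 83.3%, 8.21%, 3.13% and 5.36%, against 21.9%, 26.8%, 13.4% and 37.9% of the 269. Of the 102, 54 were called again on both 3 h arrays of slide 1 (20.1% of the 269, against 3.84%). Over the 6 arrays of 5 min and 3 h, 36 circRNAs were called on every array (13.4%, against 82.6%) and 21 on none (7.81%, against 0.301%). For 22 circRNAs all 8 arrays of slide 1 were called and none of the 4 on slide 2, a pattern that no circRNA outside the 269 can have under the rule. The 5 min arrays had fewer calls over all probes too, as given above, and the part of that in these counts was not tested.

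Raw intensities were lower than in SHAM at 5 min, as the calls were fewer, and were higher on slide 2, where the calls were fewer as well. The median spot intensity of the 269 circRNAs was 44, 46 and 47 on the SHAM arrays, 32, 39 and 37 at 5 min, and 49 and 43.5 on replicates 1 and 2 of 3 h. On slide 2 it was 105 on replicate 3 of 3 h and 109, 116 and 115 at 24 h. In 253 of the 269 circRNAs every 24 h array was brighter than every SHAM array, a pattern that 63.4% of all circRNA probes had, and in 4 every 24 h array was dimmer (6.36% of all probes). The higher level of the negative controls on slide 2 is given above. With the negative control median of its array taken away, the median circRNA stood at 19, 21 and 22 in SHAM, at 22, 16.5 and 21.5 at 3 h, and at 20, 15.5 and 17 at 24 h. At 5 min it stood at 6, 13 and 10.5.

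The background-subtracted signal, to which the scanner software applies its call, had different limits on the slides. The lowest signal called well above background was 6.35 to 10.3 on the 8 arrays of slide 1 and 19.9 to 23.3 on the 4 arrays of slide 2. The median signal of the 269 circRNAs was 17.2, 19.2 and 20.3 in SHAM and 4.58, 10 and 8.11 at 5 min. It was 17.8, 14.6 and 18.1 at 3 h and 17.2, 10.5 and 10.6 at 24 h. Replicate 3 of 3 h thus had a signal within the SHAM range and a limit of 20.2, and its median lay at 0.898 of that limit. In SHAM the median lay at 2.45 to 2.72 times the limit, on replicates 1 and 2 of 3 h at 1.73 and 1.7 times, and at 24 h at 0.736, 0.529 and 0.486. Signals of single circRNAs at 24 h were all below those in SHAM for 108 of the 269, against 13.6% of all probes, and all above for 11, against 28.2%.

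**Figure D2:**
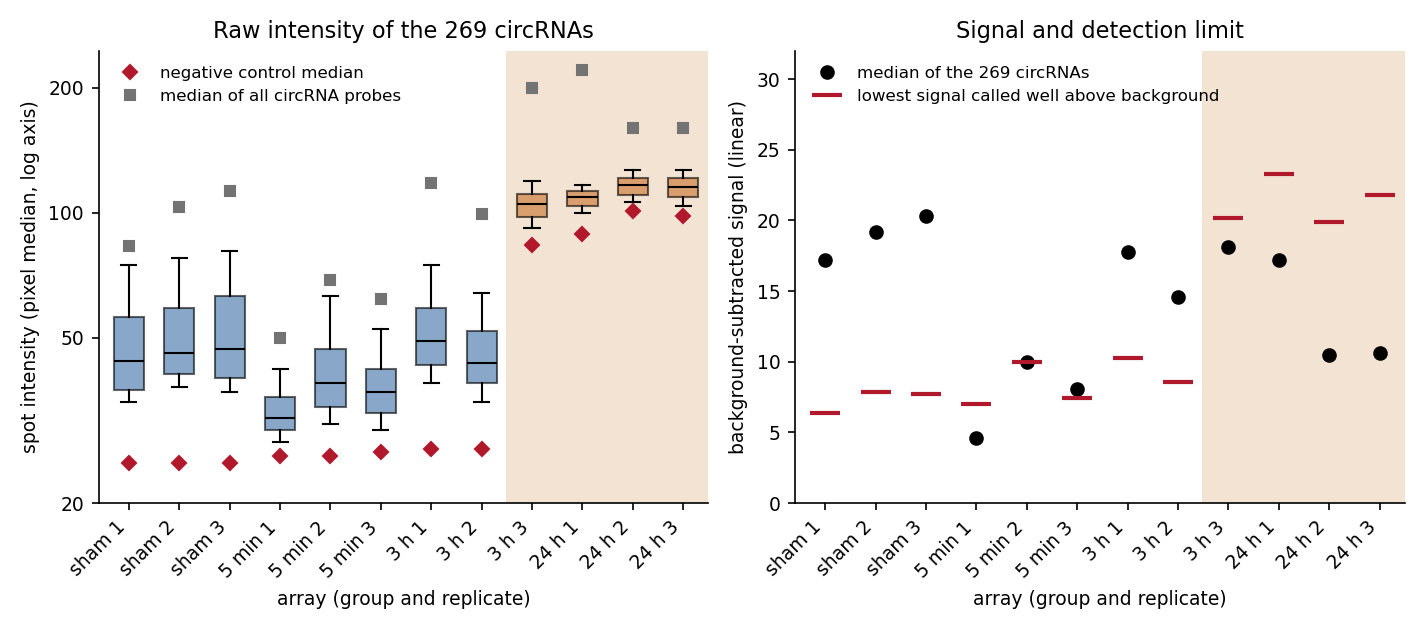
Left, raw spot intensity (pixel median, log axis) of the 269 circRNAs on each array, as boxes from the lower to the upper quartile with the median as a line and whiskers from the 10th to the 90th percentile, beside the medians of the negative controls (red diamonds) and of all circRNA probes (grey squares). Right, median background-subtracted signal of the 269 circRNAs (black circles, linear scale) and the lowest signal called well above background on that array (red bars), with slide 2 shaded in both panels. The raw medians are 32 to 49 on slide 1 and 105 to 116 on slide 2, and on slide 2 the limit lies above the median circRNA on all 4 arrays.

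Counting all arrays against one limit changed which circRNAs met the rule. These limits were set after the values had been seen. With the highest limit of the 12 arrays (23.3), 82 circRNA probes met the rule, 72 of them among the 269, and 137 of the 269 reached it on no SHAM array. With the highest limit of slide 1 (10.3), 14 probes met the rule. All of them are among the 269 by construction, since 10.3 lies above the limits of the SHAM arrays (6.35 to 7.84) and below those of 24 h (19.9 to 23.3). On the SHAM arrays 208, 243 and 238 of the 269 circRNAs were at or above that limit (77.3%, 90.3% and 88.5%), beside 80.1%, 82% and 82.7% of all probes. On the 24 h arrays 231, 136 and 142 were (85.9%, 50.6% and 52.8%), beside 97.3%, 91.5% and 89% of all probes. At 24 h, 93 of the 269 were at or above it on all 3 arrays, and 23 were below it on all 3. Leaving out replicate 1 of 24 h, the array with the most calls, raised the number meeting the original rule from 269 to 1129.

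The circRNAs nearest to the limit show how narrow the choice was. ASCRP4005334 met the rule with signals of 13.2, 13 and 7.73 in SHAM, the last at the limit itself, and 6.39, 2.27 and 5.61 at 24 h. ASCRP4009434 met it with 7.2, 8.57 and 7.8 in SHAM and 22.9, 8.07 and 5.32 at 24 h, where the highest value was 0.981 of its limit. ASCRP4013028 was inside with 6.46, 10.5 and 13.7 in SHAM and 11, 8.23 and 11.6 at 24 h. So a circRNA with a signal about as high or higher at 24 h could still meet the rule. Just outside, ASCRP4007767 had 9.2, 9.73 and 9.14 in SHAM and 23.3, 15.8 and 17.1 at 24 h, the first of these being called. ASCRP4003867 was missed by 1 SHAM array, with 13.9, 12.8 and 7.72 in SHAM and 22.4, 17.1 and 11.4 at 24 h. ASCRP4002497 had 40.1, 28.2 and 19.8 in SHAM and 23.3, 4.27 and 4 at 24 h, and 1 array of 24 h was called. In all, 1015 probes missed the rule on 1 array, 913 of them through 1 called array of 24 h and 102 through 1 SHAM array that was not called.

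Normalized intensity, on a log2 scale after background correction and quantile normalization, places all arrays on one distribution, with medians over all circRNA probes of 6.24 to 6.31. The correction took away the local background, and not the higher level of the negative controls on slide 2. The part of that level in the normalized differences was not tested. The SHAM arrays had medians of 5.02, 4.96 and 4.94 over the 269 circRNAs, and the 5 min arrays 4.73, 4.96 and 4.9. It was 4.79 and 4.75 on replicates 1 and 2 of 3 h, 4.13 on replicate 3, and 3.81, 4 and 4.18 at 24 h. The 8 arrays of slide 1 and the 4 arrays of slide 2 did not overlap on this median, and replicate 3 of 3 h lay within the range of 24 h.

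**Figure D3:**
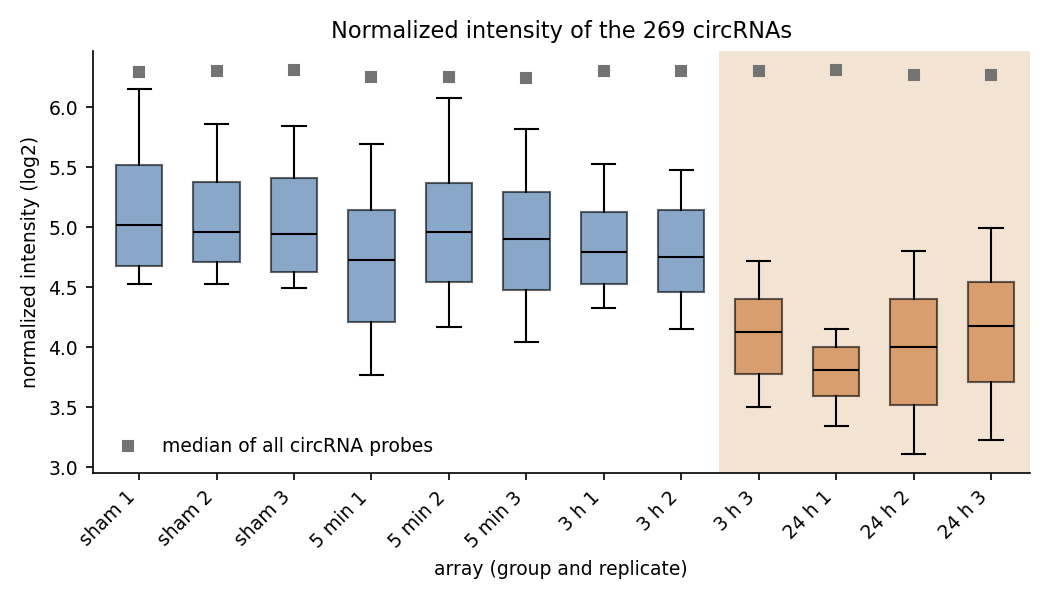
Normalized log2 intensity (y axis) of the 269 circRNAs on each of the 12 arrays (x axis), as boxes from the lower to the upper quartile with the median as a line and whiskers from the 10th to the 90th percentile, in blue for slide 1 and orange on shading for slide 2. Grey squares are the medians of all circRNA probes, which lie at 6.24 to 6.31, while the medians of the 269 circRNAs are 4.73 to 5.02 on slide 1 and 3.81 to 4.18 on slide 2.

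Against SHAM, the median log2 difference of the 269 circRNAs was -0.19 at 5 min and -0.26 on the 2 arrays of 3 h that share the slide of SHAM, beside 0.05 and -0.07 over all probes. With all 3 arrays of 3 h it was -0.53 (-0.08 over all probes). At 24 h, the contrast that chose them, it was -1.07 (-0.09 over all probes). In the values at 5 min and on the 2 arrays of 3 h all arrays are on slide 1. Every 5 min array was below every SHAM array in 64 of the 269 circRNAs, where 15.3% of all probes had that order. On slide 1 both 3 h arrays were below all SHAM arrays in 125, against 22.7% of all probes, and at 24 h the order held in 211, against 22.9%. These contrasts share the SHAM arrays with the choice of the circRNAs, which favours high SHAM values, and nothing is read from them.

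The comparison within the 3 h group asked how much of such a difference appeared between slides at one time point. The median of replicate 3 minus replicates 1 and 2 was -0.71 over the 269 circRNAs and -0.11 over all probes. It was -0.24 without background subtraction, -0.22 with an offset of 50 and -0.17 with the processed signal of the scanner software. With cyclic loess normalization it was -0.65, and in the deposited table of log2 values -0.41. On background-subtracted signal, before normalization, 101 of the 269 were lower on replicate 3 than on both others and 109 higher, beside 25.5% and 58.1% of all probes. After normalization replicate 3 lay below both other arrays in 233 of the 269, where 49.2% of all probes had that order, and below all SHAM arrays in 257, against 40.6%. The difference was below 0 in 249 (92.6%), against 56.1% of all probes. The 5th to 95th percentile ran from -1.67 to 0.11 and the extremes were -2.59 and 1.34.

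No single circRNA passed the test of that difference. By limma's moderated test with a term for the slide, 0 of the 269 were called at an adjusted p of at most 0.05, as were 0 of the 14235 probes tested (0%). At an unadjusted p under 0.05, 72 were lower on replicate 3 and 1 was higher, beside 9.28% and 6.71% of all probes. The smallest adjusted p was 0.0598, for ASCRP4006018. The median standard error of a difference was 0.46, and with 1 array of 3 h on slide 2 the test has no replicate on that side. Its spread came from the replicates of all groups, among them the SHAM and 24 h arrays that chose the circRNAs. Leaving out replicate 1 of 24 h gave 32 calls among the 269 (11.9%), 31 of them lower, beside 9.36% of all probes. The processed signal of the scanner software gave 9 (3.35%), 6 of them lower, beside 6.27% of all probes.

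Within slide 2, where 3 h and 24 h can be set side by side, the difference depended on the scale. On background-subtracted signal, 24 h minus replicate 3 of 3 h had a median of -5.39 over the 269 circRNAs and -13.67 over all probes. There all 3 arrays of 24 h were below replicate 3 in 144 of the 269 and all above in 29, beside 29.9% and 10.8% of all probes. Part of this is fixed by the choice, which requires low signal at 24 h. After normalization the median of 24 h minus replicate 3 was small, at -0.07 over the 269 circRNAs and 0.02 over all probes. All 3 arrays of 24 h were below replicate 3 in 94 of the 269 and all above in 33, where 18.2% of all probes had the lower order and 26.9% the higher. Across slides, 24 h minus replicates 1 and 2 of 3 h had a median of -0.83 (-0.01 over all probes), with all arrays lower in 200, against 25% of all probes. With the slide difference of the 3 h group taken off, the median of 24 h minus SHAM changed from -1.07 to -0.35, a value that rests on 1 array of 3 h.

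The circRNAs that were bright in SHAM differed from the dim ones in these steps. In the 90 dimmest of the 269, the median was 4.67 in SHAM, 4.54 on replicates 1 and 2 of 3 h, 3.95 on replicate 3 and 3.97 at 24 h, and the median of 24 h minus replicate 3 was 0.03. In the 89 brightest, the median was 5.67 in SHAM, 5.26 on replicates 1 and 2, 4.36 on replicate 3 and 4.01 at 24 h. The median of 24 h minus replicate 3 was -0.36 there. All 24 h arrays were lower in 43 of the 89, against 22 of the 90 dimmest, beside 18.2% of all probes. Of the 89 brightest, 57 were still called well above background on replicate 3, and of the 90 dimmest 15 were. Because the rule requires low values at 24 h and sets no condition on replicate 3, part of this is fixed by the choice.

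**Figure D4:**
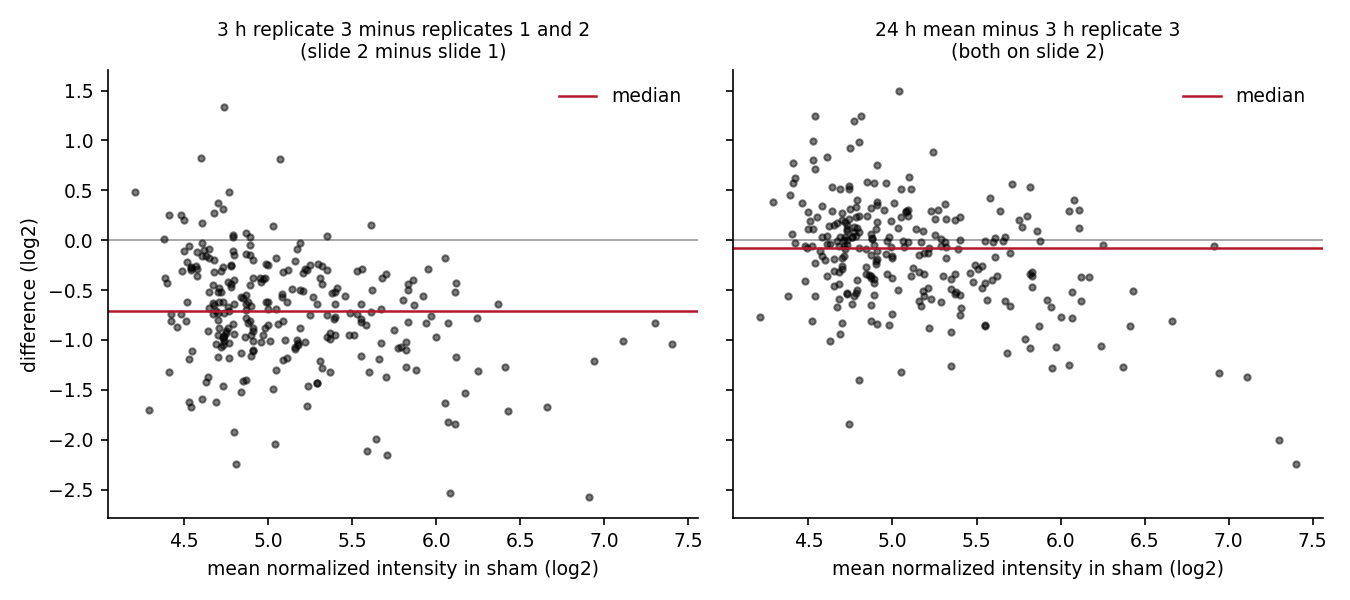
Difference in normalized log2 intensity (y axis) of each of the 269 circRNAs against its mean in SHAM (x axis), for replicate 3 of 3 h minus the mean of replicates 1 and 2 (left, between slides) and for the 24 h mean minus replicate 3 of 3 h (right, both on slide 2). Red lines are the medians, -0.71 on the left and -0.07 on the right, and the points on the right lie on both sides of 0.

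Signal high enough to pass the limit of every array set 72 of the 269 circRNAs apart in SHAM. Their median was 5.8 in SHAM, 5.56 at 5 min and 5.33 on replicates 1 and 2 of 3 h. It was 4.45 on replicate 3 and 4 at 24 h. On the 3 h arrays, 72, 69 and 49 of them were called. Even among these, raw intensity was higher on all 24 h arrays than on all SHAM arrays in 58 and lower in 4, beside 63.4% and 6.36% of all probes. The 137 whose SHAM signal never reached that limit had medians of 4.73 in SHAM, 3.96 on replicate 3 and 3.93 at 24 h.

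The 12 circRNAs brightest in SHAM were followed array by array. ASCRP4003022 had normalized log2 intensities of 8.37, 7.06 and 6.77 in SHAM, 6.01, 6.24 and 6.03 after 5 min, 7.21, 6.97 and 6.05 after 3 h and 3.44, 3.43 and 4.57 after 24 h. It was called on all 9 arrays before 24 h, and its 24 h arrays were lower than replicate 3 of 3 h on the same slide. Its raw intensity was 284, 165.5 and 156 in SHAM, 182 on replicate 3 and 100, 108 and 122.5 at 24 h, so that here the raw values were lower at 24 h as well. SHAM was 10.5-fold above 24 h by a bound taken from the mean in SHAM (7.4 ± 0.85, SD, n = 3) and the 24 h arrays. On each 24 h array it took the higher of the circRNA's own value and the lowest value called well above background (3.53, 3.91 and 4.25). That lowest value is not a sharp limit, because the call is made on another scale. ASCRP4005345 was called on no 24 h array and stood at 4.18, 4.98 and 5.68. The bounds are therefore not strict minimums. All such bounds cross the slides, rest on the SHAM and 24 h values that chose the circRNAs, and hold for this normalization only, since the median difference of the 269 changed from -1.07 to -0.33 with an offset of 50 in the background correction.

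ASCRP4006014 had 7.86, 7.3 and 6.75 in SHAM, 6.87, 7.95 and 7.62 after 5 min, 6.12, 6.03 and 5.24 after 3 h and 2.57, 3.43 and 3.71 after 24 h. The 3 h arrays were all below those of 5 min, by 1.68 on the log2 scale (SE 0.41), which missed the threshold in the limma test (adjusted p = 0.065). Its bound was 10.6-fold, the highest of the 269. ASCRP4010256 was steady in SHAM, at 6.97, 7.17 and 7.19, and had 6.39, 7.34 and 6.97 after 5 min, 6.68, 6.15 and 5.4 after 3 h and 3.81, 4.37 and 3.91 after 24 h, with a bound of 7.82-fold. In both, the lowest 3 h array was replicate 3, and every 24 h array was lower still.

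ASCRP4006018 was the one of the 269 with the smallest adjusted p between replicate 3 and the other 3 h arrays, and it did not pass the threshold. It had 7.12, 6.89 and 6.71 in SHAM, 7.72, 7.37 and 7.54 after 5 min, 6.19, 6.23 and 3.63 after 3 h and 3.77, 3.05 and 3.91 after 24 h. Replicate 3 of 3 h was thus among the 24 h values and was not called, while the other 3 h arrays lay close together. The difference of replicate 3 from replicates 1 and 2 was -2.59 (SE 0.39, adjusted p = 0.0598 in limma with the slide term, and 0.000602 to 0.525 as single arrays were left out, below the threshold without replicate 1 of 24 h alone). Over 3 h against 5 min its difference was -2.19 (SE 0.55, adjusted p = 0.0722).

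Of the 12 brightest circRNAs in SHAM, all were called on replicates 1 and 2 of 3 h and 10 on replicate 3. In 9 of the 12 all 24 h arrays were below replicate 3, where 18.2% of all probes had that order, and the median difference was -0.97. These 12 were picked for high SHAM values and the rule requires low values at 24 h, so that this order is partly built in. The bounds of the 12 ran from 2.88-fold for ASCRP4011580 to 10.6-fold. Among them ASCRP4008239 had the narrowest spread at 24 h, with 4.05, 4.26 and 4.22, against 6.4, 6.23 and 6.1 in SHAM, 6.34, 5.92 and 6.34 after 5 min and 5.96, 6.09 and 5.24 after 3 h. ASCRP4011265 and ASCRP4014145 were called on 2 of the 3 arrays of 5 min. Their replicate 1 of 5 min, at 5.08 and 4.4, was the low one, against 7.11 and 6.75 for ASCRP4011265 and 6.83 and 6.34 for ASCRP4014145 on the other arrays. The remaining 5 of the 12 (ASCRP4009273, ASCRP4012667, ASCRP4012358, ASCRP4011580 and ASCRP4012023) had SHAM means of 6.66, 6.41, 6.37, 6.25 and 6.17 and 24 h means of 3.24, 3.37, 4.06, 4.72 and 4.48.

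**Figure D5:**
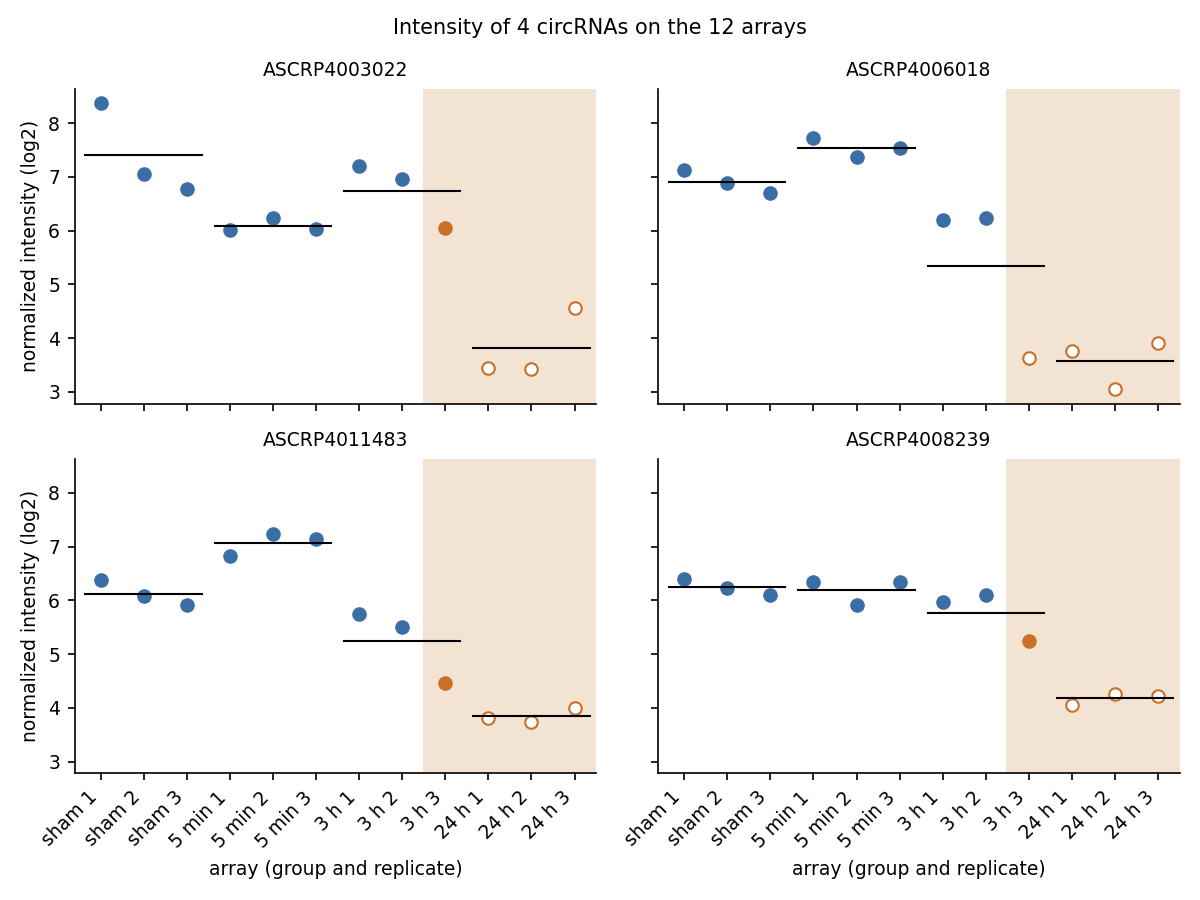
Normalized log2 intensity (y axis) of 4 circRNAs on the 12 arrays (x axis), filled where the array called the spot well above background and open where it did not, in blue for slide 1 and orange on shading for slide 2, with black lines at the mean of the 3 arrays of each group. ASCRP4003022 and ASCRP4008239 were called on replicate 3 of 3 h and not at 24 h, ASCRP4006018 stood at 3.63 on replicate 3, within its 24 h values of 3.05 to 3.91, and ASCRP4011483 was lower at 3 h than at 5 min.

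None of the arrays of 5 min and 3 h was used to choose the circRNAs, and these groups were compared by limma's moderated test over all probes. The spread in this test was estimated from all 12 arrays, SHAM and 24 h included. The standard errors are therefore not independent of the choice. Replicate 3 of 3 h also lay on slide 2 with the 24 h arrays. Of the 269 circRNAs, 1 was lower at 3 h at an adjusted p of at most 0.05 and 0 were higher, beside 0.337% and 0.66% of all probes (0.997% in either direction). At an unadjusted p under 0.05, 48 were lower and 5 higher, beside 10.6% and 8.57% of all probes. The median difference was -0.28, with a median standard error of 0.34, and -0.04 over all probes, and 206 (76.6%) lay below 0 against 52.8%. All 3 h arrays were below all 5 min arrays in 57, where 17.2% of all probes had that order. Before normalization the order was the opposite. In raw intensity 0 of the 269 were all below and 171 all above, and in background-subtracted signal 0 and 135, beside 77.9% and 72.8% of all probes all above. On slide 1 alone, with replicates 1 and 2 of 3 h, the median was -0.07 against -0.05 over all probes, and 58 had both arrays below those of 5 min, against 23.1%.

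The circRNA called was ASCRP4011483. SHAM gave 6.38, 6.08 and 5.91, the 5 min arrays 6.82, 7.23 and 7.14, the 3 h arrays 5.75, 5.51 and 4.46, and those of 24 h 3.81, 3.74 and 4. Its 5 min values were above all others, and the 3 h values lay below those of SHAM and of 5 min on both slides. The difference of 3 h from 5 min was -1.82 (SE 0.32, adjusted p = 0.0293 in limma), and -1.43 on slide 1 alone (adjusted p = 0.0302 without replicate 3 of 3 h). The adjusted p ran from 0.0197 to 0.175 as single arrays were left out, and the call was lost without replicate 2 of SHAM (0.0697), 2 or 3 of 5 min (0.103 and 0.175), 1 or 2 of 3 h (0.0774 and 0.0919) or 2 of 24 h (0.0579). The number of the 269 called was 0 without each of these 6 arrays, 5 without replicate 1 of 5 min (1.86%), 3 without replicate 3 of 3 h (1.12%) and 8 without replicate 1 of 24 h (2.97%). In these last 3 fits 2.77%, 1.54% and 3.58% of all probes were called, so that the shares of the 269 were below those of all probes. With only the 3 h and 5 min groups in the model the call was lost as well. The adjusted p of ASCRP4011483 was then 0.072 in limma, and 0 of the 269 were called, beside 0.119% of all probes.

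How often a circRNA was called at 5 min went with its level in SHAM. The 59 called on all 3 arrays of 5 min had medians of 5.62 in SHAM, 5.7 at 5 min, 5.34 on replicates 1 and 2 of 3 h, 4.38 on replicate 3 and 4.03 at 24 h. The 102 called on none had 4.76, 4.3, 4.53, 3.98 and 3.94. The 21 called on no array of 5 min or 3 h were the dimmest, with 4.65 in SHAM and 3.62 at 24 h. In all 21 the raw intensity was higher on every 24 h array than in SHAM, an order that 63.4% of all probes had.

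The spots of the 269 circRNAs were spread over the array. They made up 2.1%, 1.82%, 1.8% and 1.83% of the circRNA probes in 4 equal bands of its rows and 2.21%, 1.75%, 2.11% and 1.45% in 4 bands of its columns. None was saturated, and 1 spot on replicate 1 of 3 h was an outlier and left out.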

How the data were processed

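Circular RNA of 12 mouse blood samples was hybridised to the Arraystar Mouse circRNA Array v2, in one colour. The authors deposited the scanner output of each array (Agilent Feature Extraction 11.0.1.1, per the labels), which holds intensities on a linear scale: pixel medians of spot and local background, a background-subtracted signal, a processed signal and the call well above background. The authors also deposited a series-wide table of log2 values, quantile normalized, which has a value for all 269 circRNAs and was used as an alternative. Array number limits the precision.

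From the pixel median of each spot the local background was removed by normexp with an offset of 0. Quantile normalization covered all 15712 spots, control spots included, and was followed by log2 (limma 3.58.1, R 4.3.3). Outlier spots were set to missing. No filter on low values was applied, because it would drop circRNAs by their 24 h level. One model of the 4 groups, and the same with a slide term, was fitted to all 14236 circRNA probes with a mean-variance trend, and p-values (moderated, two-sided) were adjusted by Benjamini-Hochberg over all of them. The procedure was tested on simulated data. A group's values do not overlap with another's when all its arrays lie on one side.

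The circRNAs and lists were chosen with earlier results of these data known. CircRNAs named are the 12 brightest in SHAM, any called between 3 h and 5 min or between replicate 3 and replicates 1 and 2 of 3 h, and the 3 nearest to the limit on each side. The array files hold no names. Of 903 circRNAs on the study's supplementary list, 902 were matched to a probe by mean and log2 difference (within 0.001), and 0 of them are among the 269, so no host gene or sequence is given. The study had first dropped probes that were not brighter than its control probes by a set margin on every array. A like filter kept 80 of the 269, so part of this absence is fixed by the choice. Same-numbered arrays of different groups had no common direction: the correlation of their deviations ran from -0.56 to 0.47, above 0.1 in 4 of 18 pairs. The main model did not pair them.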

Additional observations from a re-analysis of the deposited data

How the results depend on the processing

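The count meeting the rule depended on the detection call: 30 with the software's test of signal over background (positive and significant), 42 with spot medians over the negative controls' 95th percentile, 48 with normalized intensity at least 1.1 times that percentile, and, added after seeing the data, 82 and 14 with one limit on all arrays (23.3 and 10.3). It was 287 to 1129 as single arrays were left out. The median of 24 h minus SHAM was -0.37 without background subtraction, -0.33 with offset 50, -0.64 with the processed signal (scaled to the 75th percentile of each array), -0.62 in the deposited table and -0.35 with slide as a fixed term. It was -1.14 with cyclic loess normalization, and -1.14 to -0.99 as arrays were left out. That of replicate 3 minus replicates 1 and 2 was -0.24, -0.22 and -0.17 under the first 3 of these settings, -0.41 in the deposited table and -0.65 with cyclic loess (all added after seeing the data). Without replicate 1 or 2 it was -0.77 to -0.68. The median of 5 min minus SHAM, -0.19, kept its sign in the 11 alternatives run and was -0.31 to -0.07 with other processing and -0.06 without replicate 1 of 5 min to -0.29 without replicate 2. That of 3 h minus SHAM, -0.53, kept its sign in 12, at -0.58 to -0.17 (offset 50) with other processing and -0.66 without replicate 1 of 3 h to -0.26 without replicate 3.

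Between 3 h and 5 min, circRNAs of the 269 called numbered 6 without background subtraction (2.23%, against 0.997% of all probes), 5 with offset 50 (1.86%, 1.05%), 3 with the processed signal (1.12%, 1.29%), 6 in the deposited table (2.23%, 1.35%), 2 with the filter on low values (80 tested, 2.5%, 2.06%), 0 with only these groups (0.119% of all probes) and 2 with slide as a fixed term (0.743%, 1.43%). All were lower at 3 h except 1 with the processed signal and 1 with the slide term. Left-out arrays gave 0 to 8. Replicate numbers were not taken as pairs in the main model, and the replicate block gave 2 (0.743%, 1.23%). Between replicate 3 and the others the count was 9 with the processed signal and 0 to 32 with arrays left out. Array weights gave 160 and 182 calls, beside 69.1% and 50.3% of all probes, but their estimation stopped before it converged, with weights from 0.0477 to 125, and these counts are not used. Levels near the detection limit are the least certain, and 1 array on slide 2 at 3 h limits the slide comparison.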
